A study of Mus musculus with 9 samples.

Results

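Clone 2 of 4T1 cells was compared with control 4T1 cells by RNA sequencing. 4T1 is a mouse mammary carcinoma cell line that grows as an epithelial tumour and spreads to other organs when it is implanted in mice. The libraries were chosen by their titles: 3 are titled control and 3 are titled clone 2, which makes 6 of the 9 libraries of the series. The other 3 libraries are titled clone 3. Per the labels' protocols, control cells and clones were transfected with a control plasmid or a plasmid for miR-204-5p, and stable clones were selected with Zeocin. The labels give miR-204-5p overexpression of 150-fold over control for clone 2 and of 525-fold for clone 3. Because clone 2 is a single selected line, the microRNA and the history of the clone cannot be told apart from this comparison alone.

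Each title group holds 1 library with each of 3 codes, NTC, C-20 and C-26, whose meaning the labels do not give. The comparison pairs the control and the clone 2 library that share a code. The authors' deposited comparison table, which is not used for any value here, groups the libraries by these codes and not by title. The labels do not settle whether the titles or the codes mark the control cells and the clones. Groups here follow the titles. If the codes marked them, the names control and clone 2 and the labelled overexpression would not apply to the title groups. The code used for pairing would then be the treatment. Which label is right was not tested. No source states that the libraries of a title came from separate cultures. The p-values of the main fit measure the spread left between the 9 libraries after terms for title and code. That spread may be technical.

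MicroRNAs of the miR-204 family guide Argonaute proteins to messenger RNAs. Bases 2 to 8 of the microRNA, its seed, pair with matching sites in 3′ untranslated regions (UTRs), and the bound message is repressed and often degraded. In epithelial cells and carcinomas miR-204-5p is known for limiting migration, survival signalling and the transition to a mesenchymal state. miR-204-5p and its relative miR-211-5p carry the same seed, shown here in capitals in the mature RefSeq sequences (GRCm38.p6). The first comes from chr19:22750610-22750631 and the second from chr7:64205831-64205852, both on the plus strand.

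mmu-miR-204-5p: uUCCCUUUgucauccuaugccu

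mmu-miR-211-5p: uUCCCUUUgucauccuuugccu

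The strongest site for this seed is the 8mer AAAGGGAA. Sites in 4 reported targets are shown because the response of these genes is described further on: the survival factor Bcl2 (chr1:106543053-106543082, minus strand), the deacetylase Sirt1 (chr10:63320304-63320333, minus strand), the transcription factor Creb1 (chr1:64599710-64599739, plus strand) and the PI3K catalytic subunit Pik3cb (chr9:99039620-99039649, minus strand). Capitals mark the 8mer in the longest annotated 3′ UTR of each gene.

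Bcl2: gtcgaatcagctatttactgccAAAGGGAA

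Sirt1: aaagccattggaatgttaatgtAAAGGGAA

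Creb1: tgttttctcttcatgttggccaAAAGGGAA

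Pik3cb: aacatgaccctgccagaaatgcAAAGGGAA

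Expression is given as FPKM, fragments per unit length of transcript, scaled to the mapped fragments of the library. Read counts are not analysed here, so the depth of each library is unknown. FPKM sums ran from 439018.1 to 560091.9 over the 9 libraries, and 14883 to 18283 genes had a value above 0. The control NTC library stood apart from the other control libraries, with correlations of log2(FPKM + 1) of 0.931 and 0.929 against 0.984 between the other two. Olfactory and vomeronasal receptor genes, which belong to sensory neurons, were above 0 for 9.20% of 1446 genes in the control C-20 library and for 16.32% in the clone 2 C-26 library. The other 4 control and clone 2 libraries had 2.49% to 6.71%. The part of these differences between libraries in the results was not tested.

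The cells carried the markers of the labelled line. Summed over 10 epithelial and 4T1 markers, FPKM ran from 505 to 1490 in control and from 1040 to 1710 in clone 2, led by the keratin Krt18, and Ly6a alone was at or near 0. Leukocyte markers summed to 7.76 to 11.5 in control and 9.35 to 16.3 in clone 2, mostly from Cd68, while Cd3e, Cd8a and Nkg7 were at 0 in all 6 libraries. Endothelial markers summed to 11.1 to 24.2 and 18.3 to 21.7, mostly from Egfl7. Fibroblast markers summed to 52.6 to 69.1 in control and 104 to 124 in clone 2. Nearly all of that came from the matrix protein Fbln2, and both tested markers, Fbln2 and the growth factor receptor Pdgfra, were higher in all 3 pairs. Pdgfra had 1.15, 4.66 and 6.81 in control and 2.37, 6.51 and 7.48 in clone 2, with overlap. The defining collagen gene Col3a1 was at no more than 0.041 FPKM in any of the 6 libraries.

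The precursor gene Mir204 (chr19:22750605-22750672) was listed at 0 FPKM in all 9 libraries, as was Mir211. Trpm3, the gene that hosts Mir204 in an intron, reached at most 0.103. Libraries made from polyadenylated RNA report short mature microRNAs poorly, so these values do not check the labelled overexpression.

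Of 10783 genes tested, 3 rose in clone 2 and none fell at an adjusted p below 0.05, a share of 0.0278% called (limma with the code as a block, Benjamini-Hochberg over all tested genes). At an unadjusted p below 0.05 there were 968 genes higher (8.98%) and 506 lower (4.69%). The 3 genes that rose were Tigit, Tnc and Padi3. With quantile normalization 24 genes were called higher and 4 lower. Differences are given on the log2(FPKM + 1) scale, which understates the change of genes with low values. For most genes the difference between clone 2 and control was smaller than the spread of the control libraries. The median absolute difference was 0.18 on the log2 scale, against a median SD of 0.28 between control libraries. The median SD was 0.205 between clone 2 libraries, and the median residual SD of the fit was 0.213. In 7270 genes the SD of the control libraries exceeded the difference. Leaving out the control NTC library raised the lower count to 1000. Without the clone 2 NTC library 581 were higher and 192 lower, and without the clone 2 C-20 library 226 were lower. The 3 calls rest on the code as a block: without it no gene was called, 949 had an unadjusted p below 0.05, and the adjusted p was 0.154 for Tigit, 0.205 for Tnc and 0.324 for Padi3. The calls also rest on the clone 3 libraries in the fit. With only the control and clone 2 libraries and the block kept, the limma adjusted p was 0.164 for Tigit, 0.164 for Tnc and 0.107 for Padi3.

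**Figure D1:**
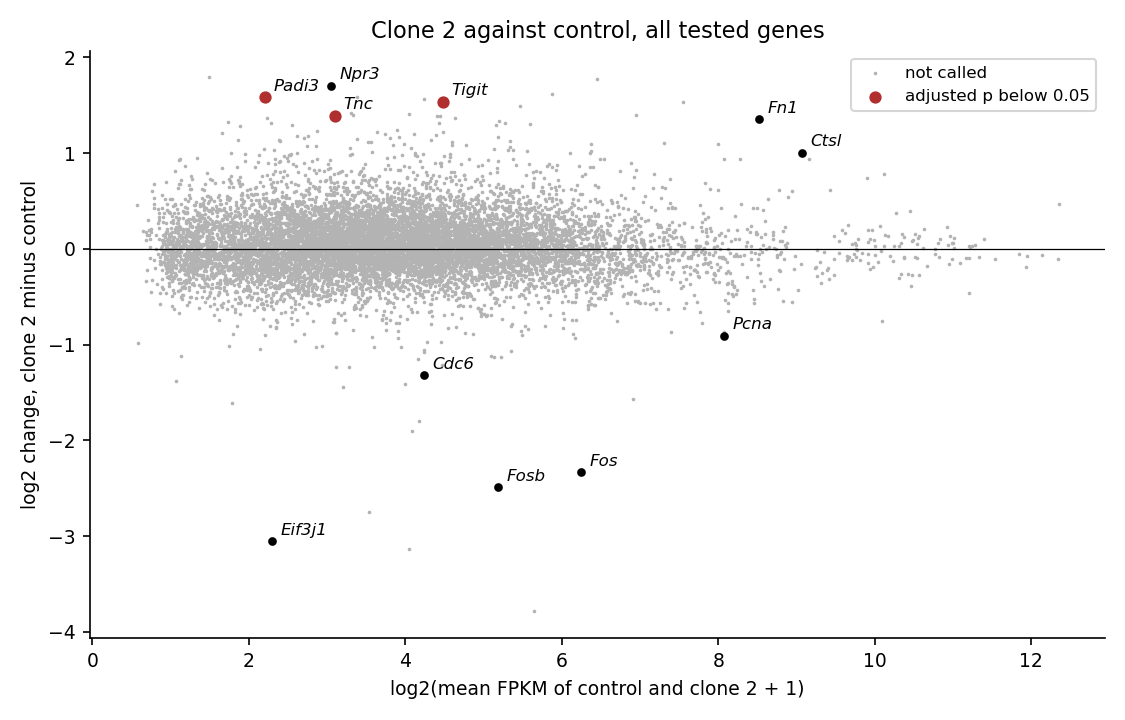
Each dot is 1 of the 10783 tested genes, with its level in the 6 libraries on the x axis (log2 of the mean FPKM + 1) and the log2 difference between clone 2 and control on the y axis. The 3 genes in red passed the test, and the black dots are other genes named in the text.

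Tigit, a receptor of T cells and natural killer cells that restrains their activation, had the lowest p-value. It lies at chr16:43626137-43665125 (mm10). Its FPKM was 7.68, 12.7 and 11.2 in the NTC, C-20 and C-26 control libraries and 29.9, 30.6 and 35.6 in the clone 2 libraries of the same codes. All clone 2 values lay above all control values, and the means were 10.5 ± 2.60 and 32.03 ± 3.09 (SD, n = 3 each). Tigit rose by 1.54 on the log2 scale (SE 0.16, 95% interval 1.18 to 1.90, limma adjusted p = 0.0229). The T cell genes Cd3e and Cd8a and the natural killer gene Nkg7 were at 0 in every one of these libraries. The T cell gene Cd3d reached at most 0.000776 in control and 0.0314 in clone 2, Cd4 at most 0.0185 and 0.0275, and the leukocyte gene Ptprc at most 0.063 and 0.128. The part of such low values in the Tigit difference was not tested. Clone 3 held Tigit at 33.6 ± 4.78, a difference of 0.06 from clone 2 (adjusted p = 0.794).

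Tnc encodes tenascin-C, a matrix glycoprotein of wound beds and tumour stroma (chr4:63959785-64047015). Control FPKM was 4.92, 4.11 and 2.35 in the NTC, C-20 and C-26 libraries, and clone 2 FPKM was 13.5, 12.1 and 8.60. The groups did not overlap, and within each group the C-26 library was the lowest. Tnc rose by 1.39 (SE 0.169, limma adjusted p = 0.0365), from a mean of 3.79 ± 1.31 to 11.4 ± 2.54 (SD, n = 3 each). Clone 3 lay between them at 8.14 ± 0.726, and its difference from clone 2 of −0.42 did not pass the test (adjusted p = 0.0846).

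Padi3 encodes a peptidylarginine deiminase, an enzyme that converts arginine in proteins to citrulline and is known from hair follicles and epidermis (chr4:140785369-140810648). FPKM was 0.662, 1.09 and 2.13 in control and 3.71, 5.38 and 8.70 in clone 2. In both groups the C-26 library was the highest and the NTC library the lowest, and the difference within each code was nearly equal at 1.5, 1.61 and 1.63 on the log2 scale. Padi3 rose by 1.58 (SE 0.196, limma adjusted p = 0.0365). In clone 3 it was lower than in clone 2 by 0.65 (adjusted p = 0.0336). Without the control NTC library, which stood apart, Tigit, Tnc and Padi3 were higher by 1.42, 1.47 and 1.48 and passed (adjusted p = 0.0039, 0.0043 and 0.0095). The calls rest on several other libraries. With the control C-26 library left out, the adjusted p was 0.0804 for Tigit, 0.082 for Tnc and 0.0804 for Padi3. With the clone 2 C-20 library left out it was 0.128, 0.271 and 0.271, and with the clone 3 C-20 library left out 0.131, 0.14 and 0.14. Without the clone 2 NTC library the same values were 0.0705, 0.118 and 0.0657, and without the clone 2 C-26 library 0.11 for each. Tnc and Padi3 also lost the call without the control C-20 library, at 0.079 each, and Padi3 without the clone 3 C-26 library, at 0.052.

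**Figure D2:**
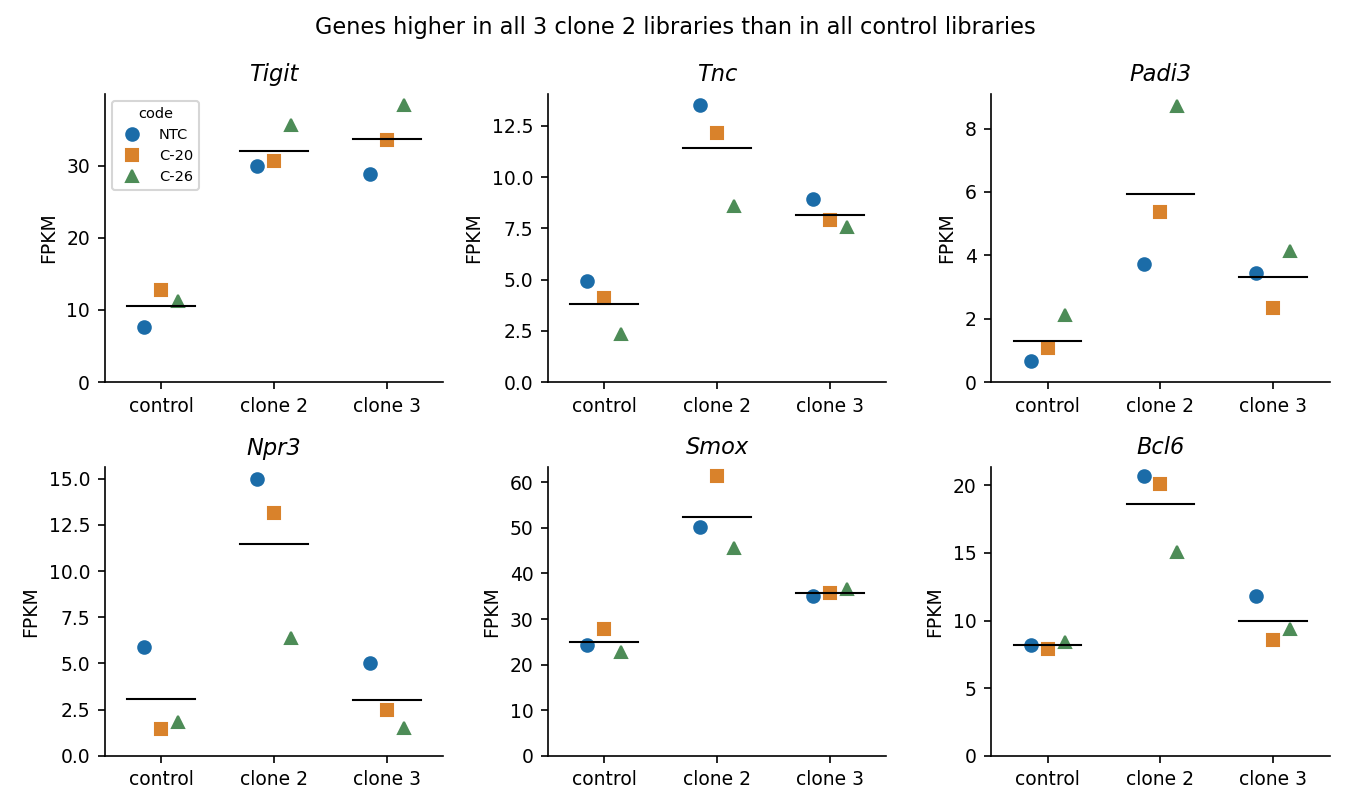
Each panel shows the FPKM of a gene in the 9 libraries, with symbols for the codes and a bar for the mean of each title group. In all 6 genes the clone 2 libraries lie above the control libraries. Clone 3 stands near clone 2 for Tigit and near control for Npr3.

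Further genes had all 3 pairs higher in clone 2 but missed the threshold. Npr3, the natriuretic peptide clearance receptor, had FPKM of 5.91, 1.44 and 1.85 in control and 14.96, 13.1 and 6.36 in clone 2. Its log2 difference was 1.71 (SE 0.236, limma adjusted p = 0.0562), and clone 3 was below clone 2 by 1.66, at 3.01 ± 1.81. The values of clone 3 thus overlapped those of control for this gene.

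Smox, which encodes spermine oxidase of polyamine breakdown, had FPKM of 24.3, 27.8 and 22.7 in control and 50.2, 61.4 and 45.7 in clone 2. The replicates were close within each group, and the difference was 1.04 (SE 0.146, limma adjusted p = 0.0562). Bcl6, a transcriptional repressor best known from germinal centre B cells, had control values close together, at 8.17, 7.88 and 8.42. Clone 2 had 20.7, 20.1 and 15.04, a difference of 1.09 (SE 0.169, limma adjusted p = 0.0581).

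Other genes with low p-values were also higher in all 3 pairs. Ecm1, a secreted matrix protein, differed by 1.33, Pcolce, an enhancer of procollagen processing, by 1.03, and Masp1, a protease of the lectin complement pathway, by 1.31. All 3 had no overlap between groups and a limma adjusted p of 0.0562. Tnnt2, the cardiac troponin T gene, differed by 1.02 and Tcam1 by 1.21 with the same adjusted p. The transcription factor Nfil3 differed by 1.29, but its groups overlapped: the control NTC library, at 28.3, lay above the clone 2 C-26 library, at 22.3.

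Genes lower in clone 2 were led by Fosb and Fos, which encode subunits of the transcription factor AP-1 and are switched on within minutes of a growth signal. Fosb had FPKM of 23.4, 88.1 and 73.8 in the NTC, C-20 and C-26 control libraries and 10.6, 7.76 and 8.10 in clone 2. Fos had 37.9, 182 and 168 in control and 13.9, 22.7 and 25.8 in clone 2. For both genes every clone 2 value lay below every control value, and the control NTC library was far below the other control libraries. The log2 differences were −2.49 for Fosb (SE 0.359, limma adjusted p = 0.0562) and −2.33 for Fos (SE 0.385, adjusted p = 0.0614), so neither passed. In the NTC pair alone the differences were −1.07 and −1.38. Without the control NTC library they were −3.07 for Fosb and −2.96 for Fos, and both passed (adjusted p = 0.0001 each). Clone 3 was lower again, at 1.66 ± 0.563 for Fosb and 1.30 ± 0.340 for Fos, and its differences from clone 2 passed the test (−1.89, adjusted p = 0.0042, and −3.21, adjusted p = 0.0003).

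The promoters of both genes are shown because the genes differed together. They run from 250 bases before to 50 bases after the start site in RefSeq (GRCm38.p6): Fos at chr12:85473640-85473939 on the plus strand and Fosb at chr7:19309996-19310295 on the minus strand. Capitals mark TGACG, the core of the cyclic AMP response element, and the TATA word TATAAA.

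Fos: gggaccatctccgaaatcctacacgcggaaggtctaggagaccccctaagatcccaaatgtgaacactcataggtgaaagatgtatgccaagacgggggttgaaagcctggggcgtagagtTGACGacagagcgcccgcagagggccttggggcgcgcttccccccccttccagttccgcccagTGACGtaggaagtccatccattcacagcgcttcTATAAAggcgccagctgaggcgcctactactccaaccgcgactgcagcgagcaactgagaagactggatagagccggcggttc

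Fosb: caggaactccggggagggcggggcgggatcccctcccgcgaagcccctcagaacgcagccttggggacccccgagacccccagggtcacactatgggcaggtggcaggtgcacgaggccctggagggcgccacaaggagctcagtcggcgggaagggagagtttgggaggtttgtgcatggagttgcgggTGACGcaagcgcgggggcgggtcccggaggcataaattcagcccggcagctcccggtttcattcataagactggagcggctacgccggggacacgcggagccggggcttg

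The Fos window holds TGACG at −129 and −66 from the start site and TATAAA at −33. The Fosb window holds TGACG at −60 and no TATAAA. Of 32851 promoters of the same length, 20.8% hold TGACG and 13.6% hold TATAAA, with both strands searched. The full element TGACGTCA (1.79% of promoters) and the AP-1 words TGACTCA or TGAGTCA (5.2%) occur in neither window. These matches describe the letters only.

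Nfkbia, which encodes the inhibitor that holds NF-kB in the cytoplasm, had FPKM of 56.0, 67.8 and 40.4 in control and 25.1, 23.3 and 26.7 in clone 2. The difference was −1.07 (SE 0.195, limma adjusted p = 0.0843), with no overlap. The clone 2 values lay close together, while the control values were wider apart. Lrdd, a death-domain gene of the p53 response, differed by −0.89 (adjusted p = 0.0899). Klf10, a growth-factor-induced zinc finger gene, differed by −0.97 (adjusted p = 0.11), and Mat2a, the S-adenosylmethionine synthetase subunit, by −0.86 (adjusted p = 0.118). Socs3, the feedback inhibitor of cytokine signalling, differed by −1.02 (adjusted p = 0.107), and its groups overlapped.

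Eif3j1, a translation initiation subunit, had the widest difference of the named genes, −3.05 (SE 0.529, limma adjusted p = 0.0669). Control FPKM was 8.65, 4.87 and 9.94, and all 3 clone 2 values were below 0.03. In clone 3 the NTC and C-20 libraries had 4.72 and 5.65 and the C-26 library 0.0287, so the gene was near 0 in 1 library there too. Its near-identical copy Eif3j2 was at 41.1, 39.7 and 33.8 in control and 48.8, 35.6 and 39.0 in clone 2. Reads may have been split between the copies, so the values of Eif3j1 are uncertain. The same holds for short transcripts: Snora81, a small nucleolar RNA of 164 nt, differed by −1.13 (adjusted p = 0.092) and the microRNA precursor Mir8093 of 137 nt by −1.62 (adjusted p = 0.11), and libraries of fragmented polyadenylated RNA measure both poorly.

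**Figure D3:**
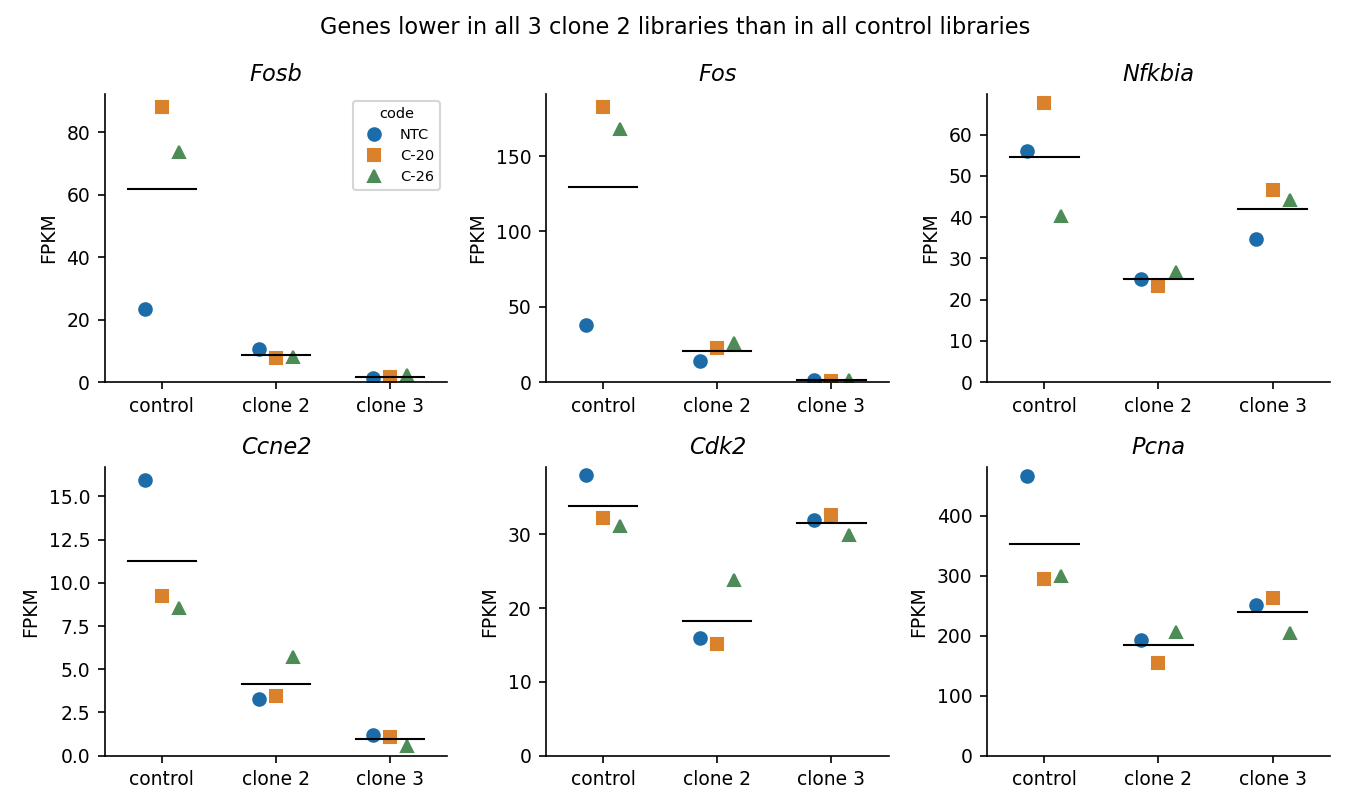
Each panel shows the FPKM of a gene in the 9 libraries, with symbols for the codes and a bar for the mean of each title group. Fosb, Fos, Nfkbia, Ccne2, Cdk2 and Pcna are lower in every clone 2 library than in every control library, and none passed the adjusted threshold.

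Groups of genes were then described by counts. Higher in all 3 pairs were 2215 of the tested genes (20.5%) and lower in all 3 were 1665 (15.4%). Without overlap between groups there were 826 higher (7.66%) and 659 lower (6.11%). These shares, and those of 8.98% higher and 4.69% lower at an unadjusted p below 0.05, are the background for the counts of each list below. The median log2 difference over all tested genes was 0.03. In RNA of bulk cells, fewer cells of a kind and less RNA per cell cannot be told apart. Some genes named from here on were set by rule. These are called genes, genes with low p-values and the same sign in all 3 pairs, and the member of each list with the lowest p-value. The reported miR-204-5p targets were also named by rule. The other genes were chosen after their values were seen.

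Matrix and protease genes stood high in clone 2. Of 39 tested members, 25 were higher at an unadjusted p below 0.05 (8.98% of all tested genes) and 0 lower (4.69%), 26 were higher in all 3 pairs (20.5%), and 15 had no overlap (7.66%). Tnc alone was called. The median was 0.57, with 0.75 in the NTC pair, 0.31 in the C-20 pair and 0.62 in the C-26 pair. Leaving out the control C-20 and clone 2 C-26 libraries, which had the most receptor genes above 0, left 22 higher and 0 lower. Leaving out the control NTC library left 21 and 0. The higher count was 19 without the code as a block, and it ran from 14 to 32 over all alternatives, with 0 lower in each.

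Among them, Ctsl, a lysosomal and secreted cysteine protease, had FPKM of 245, 477 and 374 in control and 671, 701 and 757 in clone 2, a difference of 1.01 (limma adjusted p = 0.118). Mmp9, the gelatinase that cleaves basement membrane collagen, had 7.87, 18.1 and 8.20 against 27.2, 22.6 and 40.5, a difference of 1.38 (adjusted p = 0.118). The protease inhibitor Timp1 was also higher, by 0.65 (adjusted p = 0.143), so genes of proteases and of an inhibitor lay on the same side. Hspg2, the basement membrane proteoglycan perlecan, differed by 0.99 (adjusted p = 0.124). Ctsl, Mmp9, Timp1 and Hspg2 also stood above control in clone 3, by 1.07, 1.56, 0.84 and 0.945 (adjusted p = 0.0055, 0.0035, 0.0035 and 0.0119). None of them passed the test between the clones, so their higher level was not particular to clone 2. Clone 3 was not described for the list as a whole.

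Fn1, the fibronectin gene, had the lowest p-value of the mesenchymal list. Its FPKM was 345, 165 and 138 in control and 548, 586 and 414 in clone 2, a difference of 1.36 (limma adjusted p = 0.0669). Of 10 tested members of that list, 2 were higher at an unadjusted p below 0.05 and 0 lower, with a median of 0.29. Fbln2, a basement membrane protein counted with the fibroblast markers, had 51.0, 59.3 and 61.8 against 121, 96.5 and 97.1 (difference 0.86, adjusted p = 0.124). Mgp, a matrix inhibitor of calcification, spanned a wide range across the codes of both groups: 1.67, 13.03 and 30.1 in control and 2.72, 24.1 and 141 in clone 2.

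Epithelial junction and keratin genes were also on the higher side. Of 29 tested, 12 were higher at an unadjusted p below 0.05 (8.98% of all tested genes) and 0 lower (4.69%). In all 3 pairs 20 were higher (20.5%), and 5 had no overlap (7.66%), with a median of 0.38. The count at an unadjusted p below 0.05 rests on single libraries: it was 6 without the control NTC library and 5 without the clone 2 NTC library. The simple epithelial keratin Krt19 had 6.82, 18.01 and 31.4 in control and 22.9, 25.5 and 47.0 in clone 2, so its groups overlapped.

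Ligands of growth factor receptors were few but on 1 side. Of 5 tested EGF-family ligands, 3 were higher at an unadjusted p below 0.05 (8.98% of all tested genes) and 4 in all 3 pairs (20.5%). Their median was 0.87. Areg, the ligand amphiregulin, had 16.3, 33.1 and 28.6 in control and 104, 66.1 and 36.8 in clone 2, a difference of 1.31 (limma adjusted p = 0.152). Hbegf differed by 0.87 (adjusted p = 0.153) without overlap, and Nrg1, the neuregulin gene, by 0.92 (adjusted p = 0.144) with overlap. The clone 2 NTC library held the highest value of all 3 genes.

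In the TGF-beta and BMP list, 8 of 34 tested members were higher at an unadjusted p below 0.05 and 0 lower, with a median of 0.23. Without the control NTC library 3 were lower, and without the clone 2 NTC library 2. Inhba, which encodes the activin A subunit, led it with FPKM of 4.06, 4.37 and 3.09 in control and 24.8, 10.7 and 6.07 in clone 2. The difference was 1.42 (limma adjusted p = 0.0843), and the NTC library of clone 2 was the highest by a wide margin. Ltbp2, a protein of the latent TGF-beta binding family, differed by 0.87 (adjusted p = 0.12). Inhba was far lower in clone 3, at 2.24 ± 1.16.

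Among 15 tested chemokine and cytokine genes, 4 were higher and 2 lower at an unadjusted p below 0.05. The lower count was 4 without the control NTC library and 1 without the control C-20, clone 2 NTC or clone 2 C-20 library. Tslp, an epithelial cytokine that acts on dendritic cells, had FPKM of 3.39, 3.26 and 3.28 in control and 6.78, 8.48 and 9.09 in clone 2. The control values were nearly equal and the groups well apart, with a difference of 1.07 (limma adjusted p = 0.0669). Il11, a cytokine of the interleukin 6 family, differed by 1.13 (adjusted p = 0.265), with 11.2 in the clone 2 NTC library and no more than 4.00 in the other 5. The chemokine gene Ccl5 had 13.9, 19.3 and 23.97 in control and 6.66, 12.1 and 15.5 in clone 2 (difference −0.73, adjusted p = 0.23).

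Genes of the ATF4 response, which supplies amino acids under stress, had a median of 0.61. Of 43 tested, 24 were higher at an unadjusted p below 0.05 (8.98% of all tested genes) and 0 lower (4.69%). In all 3 pairs 28 were higher (20.5%), and 7 had no overlap (7.66%). The C-20 pair had a median of 1.22, against 0.30 in the NTC pair and 0.23 in the C-26 pair. The count was 11 without the control C-20 library, 12 without the clone 2 C-20 library and 9 without the code as a block. Aldh18a1, an enzyme of proline synthesis, had 55.5, 30.3 and 50.2 in control and 109, 97.0 and 66.9 in clone 2 (difference 1.00, limma adjusted p = 0.118). Slc7a5, a transporter of large neutral amino acids, differed by 0.75 without overlap (adjusted p = 0.137). The stress factor Ddit3 differed by 1.06 with overlap (adjusted p = 0.133), and Fgf21, a secreted stress hormone, by 0.93 (adjusted p = 0.0899) from values of at most 1.33 in control.

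**Figure D4:**
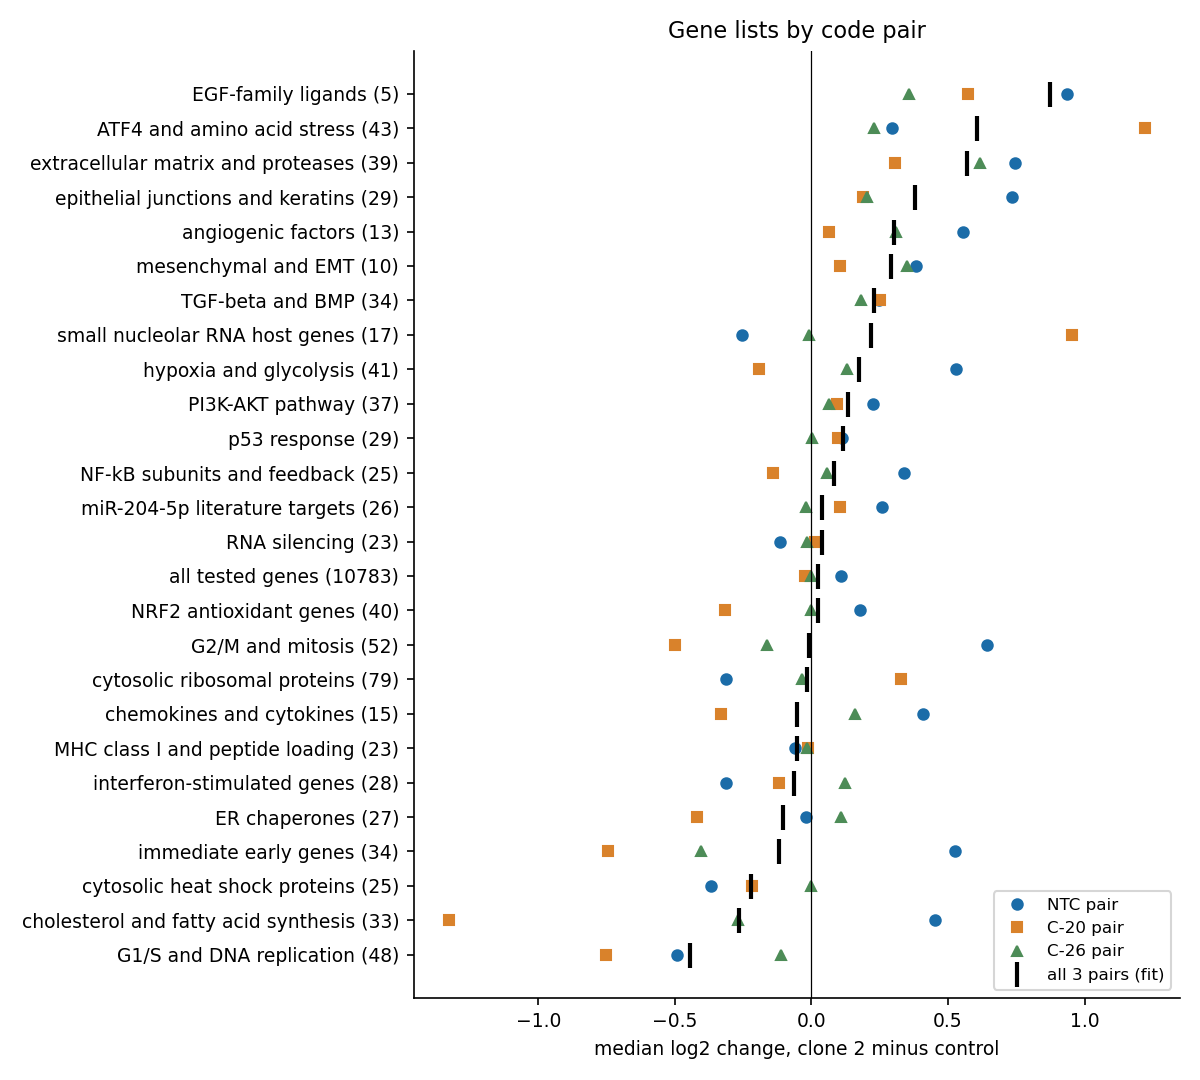
For each gene list, with the number of tested members in brackets, the median log2 difference between clone 2 and control is shown for each code pair (symbols) and for the fit over all pairs (black bars). The matrix list is above 0 in all 3 pairs and the G1/S list below 0 in all 3, while G2/M genes lie at 0.64 in the NTC pair and −0.50 in the C-20 pair.

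Genes of G1/S and DNA replication, which cells express as they enter S phase, stood low in clone 2. Of 48 tested, 23 were lower at an unadjusted p below 0.05 (4.69% of all tested genes) and 1 higher (8.98%). In all 3 pairs 26 were lower (15.4%), and 16 had no overlap in that direction (6.11%). The median was −0.45, with −0.49, −0.75 and −0.11 in the NTC, C-20 and C-26 pairs. The count was 11 without the clone 2 NTC library and 13 without the clone 2 C-20 library. Leaving out the control C-20 and clone 2 C-26 libraries left 21 lower, and leaving out the control NTC library gave 27.

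Ccne2, which encodes cyclin E2, had FPKM of 15.9, 9.23 and 8.56 in control and 3.27, 3.44 and 5.70 in clone 2. Its partner kinase Cdk2 had 38.0, 32.3 and 31.2 in control and 15.9, 15.1 and 23.8 in clone 2. The differences were −1.23 and −0.87, each with a limma adjusted p of 0.118. Pcna, the sliding clamp of DNA polymerases, had 466, 294 and 300 against 194, 155 and 206, a difference of −0.91 (adjusted p = 0.118). Cdc6, which loads the replicative helicase, differed by −1.32 (adjusted p = 0.123): its clone 2 C-26 library, at 18.3, was close to the control libraries, of which the lowest had 20.8. Slbp, the histone message binding protein, differed by −0.90 (adjusted p = 0.118). In Mcm4, a helicase subunit, the C-26 pair was not lower at all, with 76.7 in control and 79.1 in clone 2.

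Mitotic genes had a median near 0. Of 52 tested G2/M genes, 2 were higher and 0 lower at an unadjusted p below 0.05, with a median of −0.01. Their pair medians pointed in different directions, 0.64 in the NTC pair, −0.50 in the C-20 pair and −0.16 in the C-26 pair. Without the control NTC library 22 of the 52 were lower. The phosphatase gene Cdc25b had 11.1, 25.8 and 26.8 in control and 27.5, 29.3 and 33.0 in clone 2, a difference of 0.57 (limma adjusted p = 0.296), and the control NTC library was far the lowest.

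Immediate early genes were mixed beyond Fos and Fosb. Of 34 tested, 4 were higher and 11 lower at an unadjusted p below 0.05, and the medians were 0.53, −0.75 and −0.41 in the NTC, C-20 and C-26 pairs. The lower count was 19 without the control NTC library and 5 without the control C-20 library, 6 without the control C-26 library, 5 without the clone 2 C-20 library and 7 without the clone 2 C-26 library. Junb, another AP-1 subunit, had 79.4, 116 and 95.5 in control and 68.6, 68.4 and 71.0 in clone 2, a difference of −0.46 (limma adjusted p = 0.246). Fosl1, the Fos-related AP-1 subunit of many carcinomas, lay on the other side at 0.88 (adjusted p = 0.185). Myc, the growth regulator, had 432, 88.4 and 90.5 in control and 554, 292 and 153 in clone 2, which makes the NTC library the highest in both groups. Spry4, a feedback inhibitor of receptor kinase signalling, differed by 0.75 without overlap (adjusted p = 0.167). Zfp36, which speeds the decay of AU-rich messages, had 4.02, 37.4 and 29.1 in control and 3.16, 5.69 and 10.0 in clone 2, with overlap.

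Cytosolic heat shock genes were low in clone 2 in the NTC and C-20 pairs. Of 25 tested, 7 were lower at an unadjusted p below 0.05 (4.69% of all tested genes) and 0 higher (8.98%). Lower without overlap were 7 (6.11%). The median was −0.22, with −0.367, −0.218 and −0.003 in the NTC, C-20 and C-26 pairs, and −0.089 without the control NTC library. The count at an unadjusted p below 0.05 was 3 without the clone 2 C-20 library. The inducible chaperone Hspa1b had 7.67, 11.0 and 7.14 in control and 2.21, 3.23 and 6.35 in clone 2 (difference −1.03, limma adjusted p = 0.144). Hspa1b and its neighbour Hspa1a are near-identical, so reads may have been split between them. Hspa8, the constitutive form, differed by −0.75 (adjusted p = 0.176) with overlap.

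Cholesterol and fatty acid synthesis genes depended on the pair. Of 33 tested, 6 were lower and 0 higher at an unadjusted p below 0.05, but the medians were 0.45, −1.33 and −0.27 in the NTC, C-20 and C-26 pairs. The count of lower genes was 25 without the control NTC library, 14 without the clone 2 NTC library, and 1 when either C-20 library was left out. Hmgcs1, an early enzyme of the sterol pathway, had 14.8, 38.1 and 22.8 in control and 10.8, 9.11 and 12.1 in clone 2 (difference −1.07, limma adjusted p = 0.133). Idi1, a later enzyme, had 11.2, 51.2 and 30.4 in control and 10.1, 6.71 and 17.6 in clone 2.

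Other lists had few members past an unadjusted p below 0.05 and no called member. Over all tested genes 8.98% were higher and 4.69% lower at that threshold. The higher counts of the PI3K-AKT and NRF2 lists lay near the first of these shares. The PI3K-AKT list had 3 higher and 0 lower of 37 tested with a median of 0.13, led by Rptor, the scaffold of the mTORC1 kinase complex (difference 0.44, limma adjusted p = 0.28). Hypoxia and glycolysis genes had 7 higher and 1 lower of 41, led by Ndrg1 (difference 0.90, adjusted p = 0.124). Without the control NTC library they had 4 higher and 4 lower. The higher count was also 4 without the clone 2 NTC library or without the code as a block, and 3 without the clone 2 C-20 library. Angiogenic factors had 4 higher and 0 lower of 13, led by the neuropilin gene Nrp2 (0.59, adjusted p = 0.186). That count was 2 without the clone 2 NTC library and 1 without the code as a block. NF-kB genes had 4 higher and 1 lower of 25, the lower one being Nfkbia. Antioxidant genes of NRF2 had 4 higher and 3 lower of 40, led by the aldehyde dehydrogenase gene Aldh3a1 (1.28, adjusted p = 0.0995, with overlap). Genes of the p53 response had 2 higher and 4 lower of 29. Small nucleolar RNA host genes had 4 higher and 2 lower of 17, led by Snhg12 with 290, 29.8 and 30.2 in control and 427, 288 and 53.8 in clone 2. Their medians were −0.25, 0.95 and −0.01 in the NTC, C-20 and C-26 pairs. They had 10 higher and 1 lower without the control NTC library, and 2 higher and 4 lower without the control C-20 library. Without the clone 2 C-20 library 1 was higher and 1 lower, and without the clone 2 C-26 library 7 were higher. No lower gene was left without the clone 2 NTC library, and no higher one without the code as a block.

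Most of the small counts above moved by over 1.5 times when 1 library was left out. The PI3K-AKT list had 1 higher without any one of the clone 2 libraries and 2 lower without the control NTC library. NF-kB genes had 2 higher and 4 lower without the control NTC library, 0 and 2 without the control C-26 library, and 2 and 2 without the clone 2 C-26 library. Without the clone 3 NTC library 2 NF-kB genes were lower. NRF2 genes had 8 lower without the control NTC library, 1 without either of the other control libraries, and 0 without the clone 2 NTC library. Without the clone 2 C-20 library 2 NRF2 genes were higher and 1 lower. Of the p53 genes, 4 were higher without the control NTC library and 0 without the clone 2 C-20 library. The lower p53 count was 2 without the control C-26, clone 2 NTC or clone 2 C-20 library, and the higher count was 1 without any of the control C-20, clone 2 C-26, clone 3 NTC and clone 3 C-20 libraries.

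Among interferon-stimulated genes 1 of 28 was lower at an unadjusted p below 0.05: Irf1, an interferon regulatory factor, with 23.9, 16.6 and 18.1 in control and 6.82, 7.97 and 13.2 in clone 2 (difference −1.02, limma adjusted p = 0.118). ER chaperone genes had 1 lower of 27, Manf (−0.74, adjusted p = 0.243). In the MHC class I list 0 of 23 passed in either direction, and H2-M3, the member with the lowest p, differed by 0.37 (adjusted p = 0.476). Cytosolic ribosomal protein genes had 0 of 79, led by Rpl3 at 0.37 (adjusted p = 0.455). RNA silencing genes had 2 lower and 0 higher of 23, led by Dgcr8, the partner of Drosha in microRNA processing, with 20.5, 18.7 and 15.02 in control and 11.7, 7.69 and 11.2 in clone 2 (difference −0.78, adjusted p = 0.124). Of these lists, interferon-stimulated genes had 5 lower without the clone 2 C-26 library and ER chaperone genes 4. Interferon-stimulated genes had 3 lower without the control NTC or the clone 3 NTC library and 2 without the control C-20 library, and ER chaperone genes 2 without the control NTC library. RNA silencing genes had 1 to 3 lower when 1 library was left out, with 1 without the control NTC, clone 2 NTC, clone 2 C-26 or any clone 3 library.

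The literature targets of miR-204-5p showed no shared decrease. Of 32 listed genes 26 were tested. At an unadjusted p below 0.05, 3 were higher in clone 2 and 0 lower, and 9 were higher and 1 lower in all 3 pairs. Their median log2 difference was 0.04, against 0.03 for all tested genes, and none was called.

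Targets with the 8mer printed above lay near 0. Bcl2 had FPKM of 3.58, 4.55 and 5.58 in control and 4.97, 5.71 and 6.13 in clone 2, a difference of 0.26 (95% interval −0.14 to 0.66, limma adjusted p = 0.562). Sirt1 had 15.8, 14.0 and 14.5 against 16.8, 15.6 and 12.7, a difference of 0.02 (−0.39 to 0.44, adjusted p = 0.977). Creb1 had 17.9, 11.4 and 13.3 against 20.2, 18.9 and 12.9, a difference of 0.27 (−0.14 to 0.68, adjusted p = 0.558). For these genes the control and clone 2 values overlapped, and the lower ends of the intervals allow a fall of at most 0.39 on the log2 scale. Pik3cb had 9.09, 6.49 and 6.004 against 12.2, 7.54 and 6.44, a difference of 0.22 (−0.15 to 0.59, adjusted p = 0.595).

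In the remaining tested targets with an 8mer the groups overlapped. They are Tgfbr2, a TGF-beta receptor (0.27), the chromatin protein Hmga2 (0.19), Ap1s1, a clathrin adaptor subunit (−0.06), the forkhead factor Foxc1 (−0.21) and Ezr, which links actin to the membrane (−0.26). The sign of the Hmga2 and Ap1s1 differences turned under array weights. Mcl1, a survival factor of the Bcl2 family without an 8mer, had the lowest value at −0.26 and no overlap, with 53.7, 46.4 and 53.5 in control and 44.7, 38.6 and 44.4 in clone 2. At the other end stood the neurotrophin gene Bdnf, with 1.85, 3.52 and 3.20 against 5.89, 7.27 and 5.91, a difference of 0.95 (limma adjusted p = 0.0739). Runx2, the osteoblast transcription factor and a reported target, was higher by 0.70 (adjusted p = 0.152) without overlap.

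**Figure D5:**
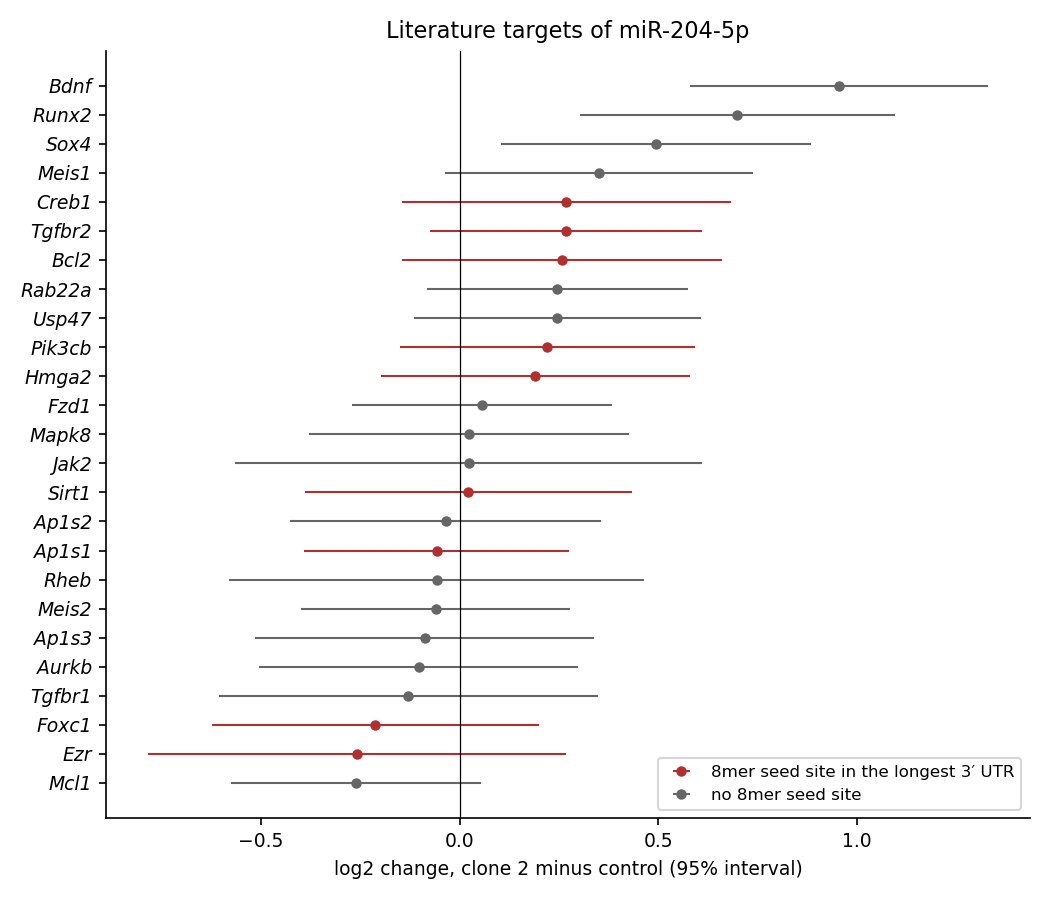
Points are the log2 differences between clone 2 and control for tested literature targets, with 95% intervals from the fit. Genes with an 8mer seed site in the longest 3′ UTR are in red, and their intervals all include 0.

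Across the transcriptome, 756 of 10404 tested genes with an annotated 3′ UTR held the 8mer AAAGGGAA in the longest one, a share of 7.27%. Among genes lower at an unadjusted p below 0.05 it was 24 of 467 (5.14%), and among genes higher it was 77 of 948 (8.12%). The median 3′ UTR length was 1100 nt in the lower genes and 1384 nt in the higher genes, against 1363.5 nt in all, and longer UTRs hold a given word more often. Among genes lower in all 3 pairs the share was 7.54% and among those higher in all 3 it was 8.38%.

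The pairs differed in how far clone 2 departed from control. In the NTC pair 501 genes were higher by at least 1 on the log2 scale and 174 lower. The C-20 pair had 238 and 219, and the C-26 pair 66 and 29. Across genes the differences of the pairs had correlations of 0.127 (NTC and C-20), 0.213 (NTC and C-26) and 0.337 (C-20 and C-26), and genes are not independent replicates. With the control NTC library left out, 76 genes were called, 54 higher and 22 lower.

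Clone 3 was tested directly against clone 2 in the same fit. Of the 10783 genes, 3176 differed (29.5%), 1306 higher (12.1%) and 1870 lower (17.3%) in clone 3. Both clones share the control libraries, so their differences from control are given side by side. Tigit stood 1.54 above control in clone 2 and 1.60 in clone 3, Pcolce 1.03 and 1.13, and Ecm1 1.33 and 1.20, and none of these 3 passed the test of the difference between the clones. Inhba stood 1.42 above control in clone 2 and 0.63 below it in clone 3, and Bdnf 0.95 above and 0.48 below (clone 3 against clone 2, limma adjusted p = 0.0004 and 0.0003). Cdk2 was lower than control by 0.87 in clone 2 and by 0.10 in clone 3, and that difference between the clones passed too (0.78, adjusted p = 0.0122). Ccne2 went further down in clone 3, to 0.954 ± 0.366.

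Among the targets, Sirt1 and Creb1 were lower in clone 3 than in clone 2 by 1.69 (limma adjusted p = 0.0002) and by 2.03 (adjusted p = 0.0001). Bcl2 was lower by 0.66 (adjusted p = 0.022), while Pik3cb differed by −0.12 (adjusted p = 0.611). Clone 3 against control gave −1.67 for Sirt1 and −1.76 for Creb1 (adjusted p = 0.0002 and 0.0001). The same contrast did not pass for Bcl2 (−0.405, adjusted p = 0.111) or Pik3cb (0.101, adjusted p = 0.668).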

How the data were processed

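Per the labels' protocols, TRIzol was used for RNA extraction, and libraries of polyadenylated RNA were read from both ends on a HiSeq2500. Per the submitters' processing notes, the authors used TopHat2 2.0.13, Bowtie2 2.2.3 and Cufflinks 2.2.1 with mm10. The authors' deposited table holds FPKM values of 24067 genes, per the file headers. FPKM values carry no read counts, so depth and counting error are unknown. Strand use and the treatment of reads shared by near-identical genes are not given in the sources used here.

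Libraries were grouped by title, 3 each, and paired by code. A gene was kept if at least 3 of the 9 libraries had FPKM of 1 or more (10783 genes). log2(FPKM + 1) of all 9 libraries, which share 1 estimate of the spread, was fitted in limma 3.58.1 (R 4.3.3) with a mean-variance trend and terms for title and code. The Benjamini-Hochberg adjustment covered all tested genes, with calls below 0.05. An exact permutation test of 3 against 3 libraries cannot go below 0.1 and was not used. The fit was checked on simulated data. Figures used matplotlib 3.10.9 in Python 3.11.15.

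Named genes were the called genes and those with the lowest p-values and the same sign in 3 of 3 pairs, up to 12 in each direction, the called members (up to 4) or the lowest p-value of each of 29 lists, and reported miR-204-5p targets. Other named genes were chosen after their values were seen. The comparison, the lists and the tests were chosen with earlier results of these data known, so no list is independent support. A few genes that enter the counts are not reported here by name. Of 945 list entries 944 matched the table. Lists are described by counts and medians without a test.

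Transcript lengths, GC content and 3′ UTRs were read from the GENCODE annotation of GRCm38, the assembly of mm10, with the longest UTR per gene, and promoters and microRNAs from RefSeq (GRCm38.p6). Alternatives were no code block, a pseudocount of 0.1, no filter, quantile and median ratio scaling, only the 6 libraries, array weights, a length and GC correction, each library left out, and, chosen after seeing the data, both libraries with the most receptor genes left out.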

Additional observations from a re-analysis of the deposited data

Results flagged for a closer look

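The results below were flagged because the response differed between the clones: in each gene named, clone 3 differed from clone 2 by the direct test in limma (Benjamini-Hochberg over all tested genes, adjusted p below 0.05). Such differences were common, at 29.5% of tested genes, so single genes do not stand out by passing. Values are log2 differences, clone 3 minus clone 2, over 3 libraries each.

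In the following genes, which stood higher in clone 2 than in control, clone 3 was below clone 2. The deiminase genes Padi3 and Padi1 were at −0.65 and −0.60, Npr3 at −1.66, Smox at −0.53, Nfil3 at −0.56, Masp1 at −0.95, Tcam1 at −0.84 and Bcl6 at −0.84. Among secreted factors and their relatives, Inhba was at −2.05, Tslp at −1.46, Areg at −1.46, Bdnf at −1.43, Nrg1 at −0.82 and Fgf21 at −0.67. Fn1 was at −0.69, the collagen gene Col8a1 at −1.03, the prostaglandin synthase Ptgs2 at −1.97, the host gene Snhg12 at −1.71 and Cd68 at −0.47.

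Genes that stood lower in clone 2 were of 2 kinds. Fos at −3.21, Fosb at −1.89, Ccne2 at −1.38 and Snora81 at −2.41 were lower again in clone 3. Higher in clone 3 than in clone 2 were the feedback and death genes Nfkbia (0.71), Socs3 (0.64) and Lrdd (0.73), the replication genes Cdk2 (0.78), Cdc6 (1.33) and Rrm2 (1.01), and the chaperone genes Hspa1b (1.15), Hspa8 (1.02) and Manf (0.93). The same holds for Hmgcs1 (1.22), Mat2a (1.11), Irf1 (1.00), Dgcr8 (0.67) and Eif3j1 (1.73). Eif3j1 and its copy Eif3j2 (−0.52) may share reads.

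Of the reported miR-204-5p targets, Creb1 (−2.03), Sirt1 (−1.69), Bdnf (−1.43), Tgfbr1 (−1.27), Jak2 (−1.13) and Ap1s2 (−1.08) were lower in clone 3 than in clone 2. So were Sox4 (−0.99), Ap1s3 (−0.92), Usp47 (−0.78), Mapk8 (−0.72), Runx2 (−0.72) and Bcl2 (−0.66). Against control, clone 3 did not pass for Runx2 (−0.022, limma adjusted p = 0.938), Bcl2 (−0.405, 0.111), Sox4 (−0.494, 0.0555) or Bdnf (−0.477, 0.0548). The other targets lower than in clone 2 were also lower than in control and passed. Ap1s1 was higher (0.62).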

How the results depend on the processing

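The number of called genes, 3 in the reported fit, moved with most choices. With no replicate block it was 0, with a pseudocount of 0.1 it was 1, and with only the control and clone 2 libraries it was 1 (lower), with the block and without it. Quantile normalization gave 28 (24 higher, 4 lower), median ratio scaling 26 (23 and 3), the length and GC correction 36 (29 and 7) and array weights, which gave the control NTC library a weight of 0.133, 394 (286 and 108). With no filter it was 2, but Tigit, Tnc and Padi3 were not among them (limma adjusted p = 0.166, 0.239 and 0.239). Leaving out 1 library gave 0 to 76, the highest without the control NTC library, and leaving out both libraries with the most receptor genes gave 0, with 1263 genes at an unadjusted p below 0.05. The cause was not tested. The median of all tested genes stayed within 0.1 of 0 in each of these. Tigit, Padi3 and Tnc kept their sign in 19 of 19 alternatives and were called in 9, 6 and 7 of them. A set of 24 genes was named for low p-values in each direction and the same sign in all 3 pairs. Its members, which include Tigit, Padi3 and Tnc, kept their sign in 454 of 454 values. They were chosen for a shared sign in the same data, so these counts of kept signs are no evidence of robustness.

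The check of the pairing by code was mixed: deviations of the same-coded control and clone 2 libraries from their group means correlated at 0.54 (NTC), −0.235 (C-20) and 0.562 (C-26). In the same order, control and clone 3 libraries correlated at 0.481, 0.207 and 0.266, and clone 2 and clone 3 libraries at 0.548, 0.075 and 0.551. The C-20 control and clone 2 libraries thus do not pair by this check. The 3 calls rest on the block, and the fit without it, with no call, is to be read beside the reported one.

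The sign turned for targets near 0. With quantile normalization Sirt1 was −0.038, Jak2 −0.039 and Mapk8 −0.035. With array weights Sirt1 was −0.134, Ap1s1 0.004, Hmga2 −0.059, Mapk8 −0.184 and Rheb 0.009. With the length and GC correction Ap1s2 was 0.109, Ap1s3 0.006, Jak2 −0.007 and Fzd1 −0.061. Without both receptor-rich libraries Sirt1 was −0.011, Jak2 −0.149 and Aurkb 0.084. Leaving out 1 library gave ranges across 0: Sirt1 −0.106 to 0.17, Ezr −0.53 to 0.003, Tgfbr1 −0.276 to 0.099, Ap1s1 −0.121 to 0.055, Ap1s2 −0.158 to 0.09, Ap1s3 −0.308 to 0.066 and Meis2 −0.126 to 0.004. The others were Jak2 −0.253 to 0.234, Mapk8 −0.139 to 0.188, Rheb −0.396 to 0.237, Aurkb −0.31 to 0.079 and Fzd1 −0.017 to 0.115.

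Limits: with 3 libraries per group, no repeated combination of title and code, and unknown depth, small changes were not detectable. Some wide differences did not pass either, such as Fosb at −2.49 and Ptgs2 at 1.78 (limma adjusted p = 0.0562 and 0.092). A gene that was not called is thus not shown to be unchanged.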

Other observations

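Further genes with wide differences belong to none of the lists, and were chosen after their values were seen. Ptgs2, the inducible prostaglandin synthase, had FPKM of 23.5, 54.7 and 34.7 in the NTC, C-20 and C-26 control libraries and 205, 123 and 76.0 in clone 2. Every clone 2 value lay above every control value, and the log2 difference was 1.78 (SE 0.341, limma adjusted p = 0.092). Cyp1b1, a cytochrome P450 of the aryl hydrocarbon response, had 2.18, 5.02 and 6.08 in control and 15.3, 13.4 and 14.6 in clone 2. Its difference was 1.59 (adjusted p = 0.0614), again without overlap. Col8a1, a short-chain collagen of vessel and eye basement membranes, had 12.2, 11.0 and 10.5 against 35.2, 28.6 and 17.1, a difference of 1.14 (adjusted p = 0.0614). Padi1, a neighbour of Padi3 that encodes another peptidylarginine deiminase, had 0.924, 2.08 and 1.72 against 2.72, 5.20 and 4.51, a difference of 0.99 (adjusted p = 0.0614).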
